A study of Bos taurus with 6 samples.

Results

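The transcripts described here encode the proteins of the cytosolic ribosome. They were chosen by gene name: every locus of the count table named as a ribosomal protein of the large (RPL) or small (RPS) subunit, together with RPLP0, RPLP1, RPLP2, RPSA and FAU, was taken if its mean count over the 6 libraries was at least 10. Among the 36577 loci counted, 81 had such a name and 79 were kept, 48 of the large and 31 of the small subunit. The 2 loci left out were RPL3L, a muscle paralogue of RPL3 with 0 or 1 read per library, and RPL10L, a testis paralogue of RPL10 listed at 0 in all 6. The lowest mean counts among those kept were 83.2 at a second locus named RPL17, 472 for RPL26L1 and 734 for RPS27L. RPS6 and RPL39L were not analysed here.

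RNA was sequenced from primary hepatocytes isolated from fasted, healthy female calves aged 1 day, labelled WT and cultured with palmitic acid (PA, 400 µmol/L), the saturated fatty acid that loads hepatocytes with lipid. In 3 libraries, called PA + 3-IAA, the cells also received 3-IAA at 200 µmol/L, which is indole-3-acetic acid, an indole that gut bacteria and tissues form from tryptophan. In the other 3, called PA + DMSO, they received the solvent DMSO. All 6 libraries carried PA and no PA-free cells were among them, so every change is one of 3-IAA on top of PA. Nothing in the labels tells separate calves from separate cultures, so the p-values cover the spread between these 6 libraries, which may be technical.

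The cytosolic ribosome is built from a small subunit, which reads the messenger RNA, and a large subunit, which joins amino acids and passes the growing chain through an exit tunnel. Each ribosome carries its proteins in fixed proportion, save for the stalk, which holds several copies of its acidic proteins, and the hepatocyte, which secretes most plasma proteins, is rich in them. Ribosomal protein mRNAs begin with a 5′ terminal oligopyrimidine (TOP) tract, through which the kinase complex mTORC1 and the RNA-binding protein LARP1 regulate their translation and stability together. The data are transcript levels, so neither translation nor the number of ribosomes was measured.

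Total counts per library were between 16580723 and 22562450. On the first principal component of log2 CPM, which held 85.6% of the variance, the PA + 3-IAA libraries lay between -38.3 and -37.7. The PA + DMSO libraries lay at 49.7 (replicate 1), 49.8 (replicate 2) and 14.7 (replicate 3), the last apart from its group. Results are therefore also given without that library. Fold changes are PA + 3-IAA over PA + DMSO, fitted with edgeR's quasi-likelihood test across 15576 genes, and a gene was called at a Benjamini-Hochberg adjusted p under 0.05. CPM values are read counts relative to library size, scaled by TMM, a method that assumes most genes are alike between libraries. In cultured cells sequenced in bulk, fewer cells of a type and less RNA per cell cannot be told apart.

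With 3-IAA, most transcripts of ribosomal proteins were lower, across both subunits and by a small amount. Of the 79 members 49 were called lower and 0 higher, where 25.8% of all tested genes were called lower and 25.4% higher. No member was higher at an unadjusted p under 0.05, or called higher by DESeq2 or limma voom, and 58 were lower at an unadjusted p under 0.05. The fitted log2 fold change was negative for 76 members and positive for RPL35, RPL23A and RPS10, at 0.04 or less; with scaling by library total 70 were negative. The median was -0.18, which is 1.14-fold lower, and the middle 50% of the members lay between -0.25 and -0.13. Over all tested genes the median was 0.003, with the middle 50% between -0.31 and 0.34, so the members were packed more closely than genes at large.

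The members are abundant, and abundant genes were called more often. Among the 1973 other tested genes with a mean of at least 100 CPM, 39.3% were called lower and 31.8% higher, with a median of -0.05. The CPM values of the groups did not overlap, with PA + 3-IAA below, for 66 members, against 31% of all tested genes. In the opposite direction it was 0 members, against 31.5% of genes. The other 13 members overlapped between groups. Leaving out PA + DMSO replicate 3 gave 69 members lower and 0 higher, where 29.7% of tested genes were lower and 30.9% higher. The count was 25 when PA + 3-IAA replicate 1 was left out, where 20.9% of tested genes were lower and 19.7% higher. It was 39 for PA + 3-IAA replicate 2 (21.4% of genes lower, 19.8% higher) and 26 for PA + 3-IAA replicate 3 (21.1% lower, 19.5% higher). It was 33 for PA + DMSO replicate 1 (21.2% lower, 19.9% higher) and 29 for PA + DMSO replicate 2 (20.7% lower, 18.8% higher). No member was called higher by edgeR in any of these fits. With scaling by library total it was 31, where 21.3% of tested genes were lower, and the median was -0.11.

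**Figure D1:**
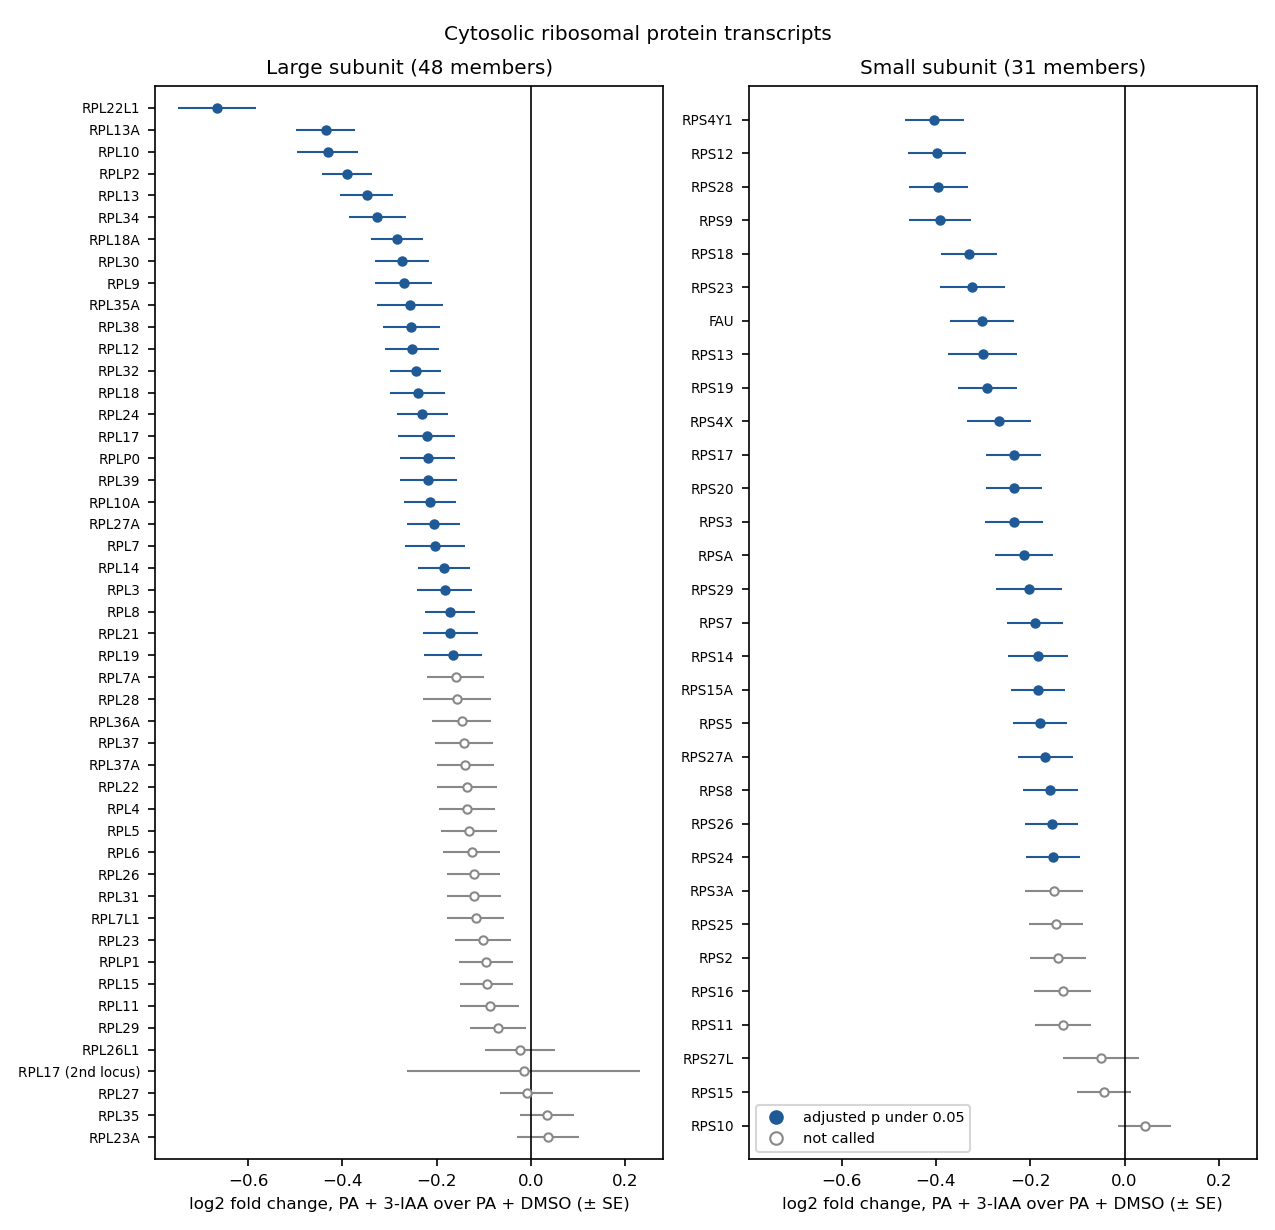
Fitted log2 fold change (PA + 3-IAA over PA + DMSO, horizontal axis) of every member, ordered within the large (left) and small (right) subunit, with bars of 1 standard error; filled points passed an adjusted p under 0.05. Nearly all points lie between -0.45 and 0.05, RPL22L1 stands apart at -0.67, and 3 members lie above 0.

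Library by library, most members shared the difference between the groups. Relative to each member's own mean over the 6 libraries, the median member lay at -0.13, -0.05 and -0.11 on the log2 scale in PA + 3-IAA replicates 1 to 3, and at 0.09, 0.13 and 0.05 in PA + DMSO replicates 1 to 3. The 3 values with 3-IAA were thus all below the 3 with DMSO, and large and small subunit members gave nearly the same medians in each library. PA + 3-IAA replicate 1 held the lowest value for 53 members and PA + DMSO replicate 2 the highest for 61. Within its group PA + DMSO replicate 3 held the lowest value for 63 members.

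**Figure D2:**
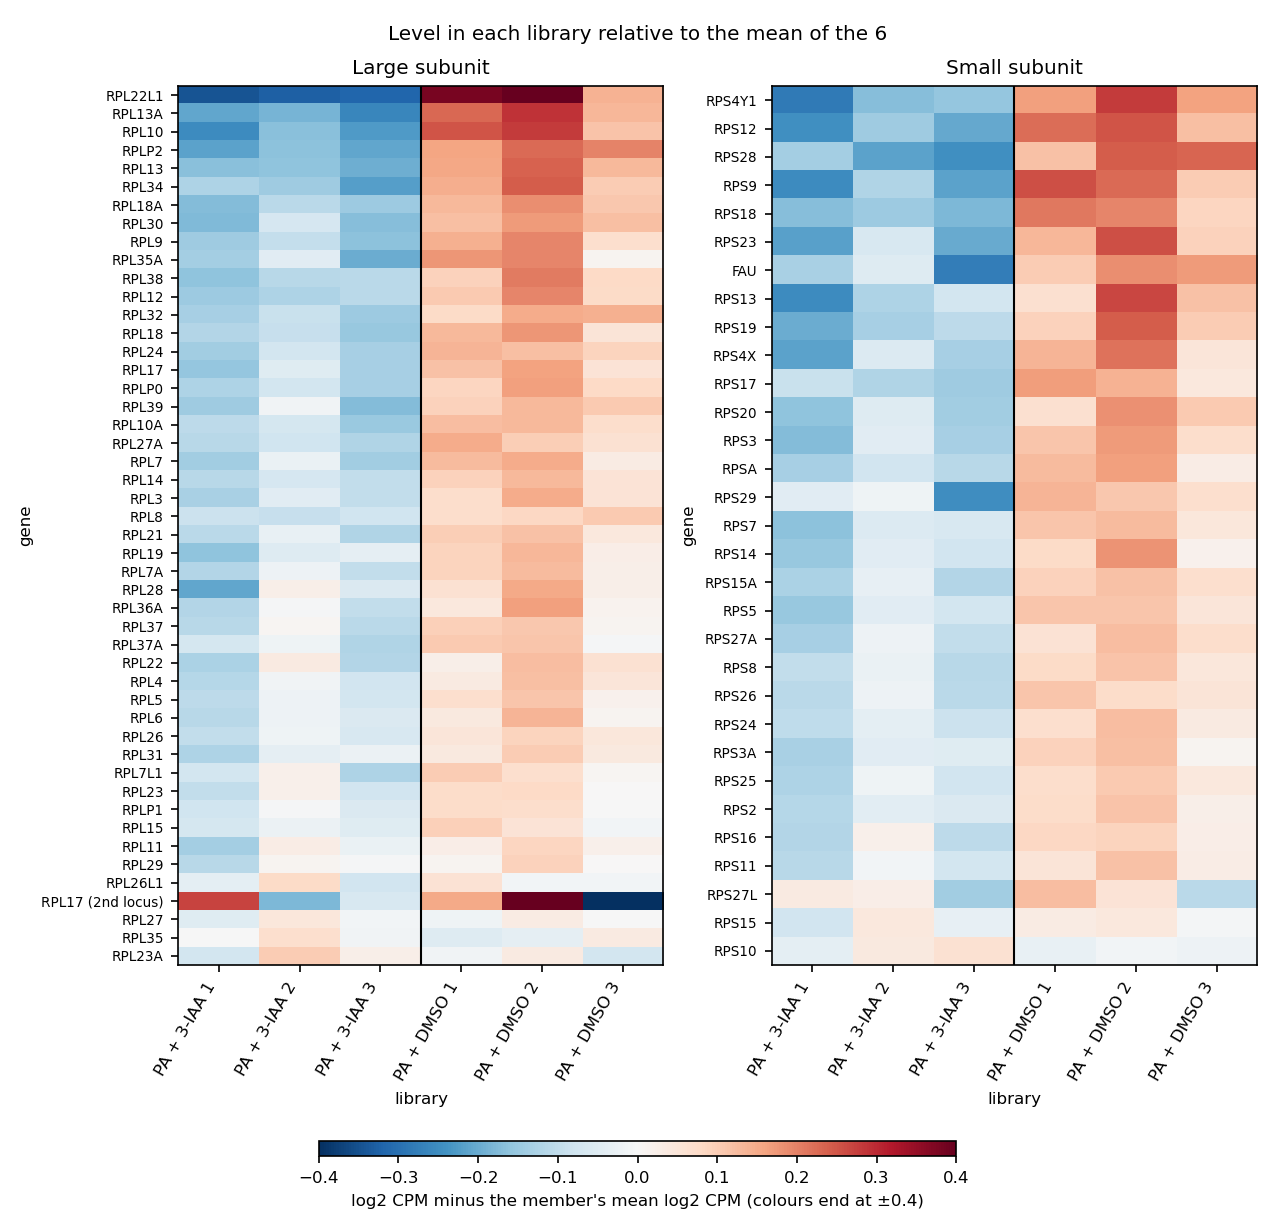
Level of each member (rows) in each library (columns, PA + 3-IAA left of the line and PA + DMSO right), as log2 CPM minus the member's mean over the 6 libraries; colours end at 0.4 in either direction. The blue left and red right sides show the shared difference, which is palest in PA + 3-IAA replicate 2 and PA + DMSO replicate 3 and absent from the lowest rows.

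On the TPM scale, which divides by transcript length, the members together made up 11.2%, 11.4% and 11.2% of all transcripts in PA + 3-IAA replicates 1 to 3, and 12.3%, 12.5% and 11.8% in PA + DMSO replicates 1 to 3. The means were 11.3 ± 0.122% with 3-IAA and 12.2 ± 0.353% with DMSO (SD, n = 3 each). The groups did not overlap, and their gap of -0.947 percentage points was larger than the spread within either. As a share of raw reads they made up 2.94 ± 0.0749% with 3-IAA and 3.20 ± 0.067% with DMSO (SD, n = 3 each), a scale that does not divide by length.

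In median change and summed level, large and small subunits differed little from each other. In the large subunit 26 of 48 members were called lower, with a median of -0.17, and in the small subunit 23 of 31, with a median of -0.19. Among all tested genes 25.8% were called lower. The share called was thus larger in the small subunit, at a median close to that of the large. The summed TPM of the large subunit was 6.23 ± 0.0716% with 3-IAA and 6.69 ± 0.184% with DMSO, and that of the small subunit 5.04 ± 0.05% with 3-IAA and 5.52 ± 0.169% with DMSO (SD, n = 3 each). The ratio of small to large was 0.810, 0.807 and 0.809 in PA + 3-IAA replicates 1 to 3 and 0.823, 0.829 and 0.823 in PA + DMSO replicates 1 to 3. These values did not overlap, but the gap in the ratio is -0.03 on the log2 scale. In CPM the same ratio averaged 0.646 with 3-IAA and 0.649 with DMSO, the libraries of the groups overlapped, and the log2 difference was -0.0079. The medians without PA + DMSO replicate 3 were -0.20 for the large and -0.22 for the small subunit.

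**Figure D3:**
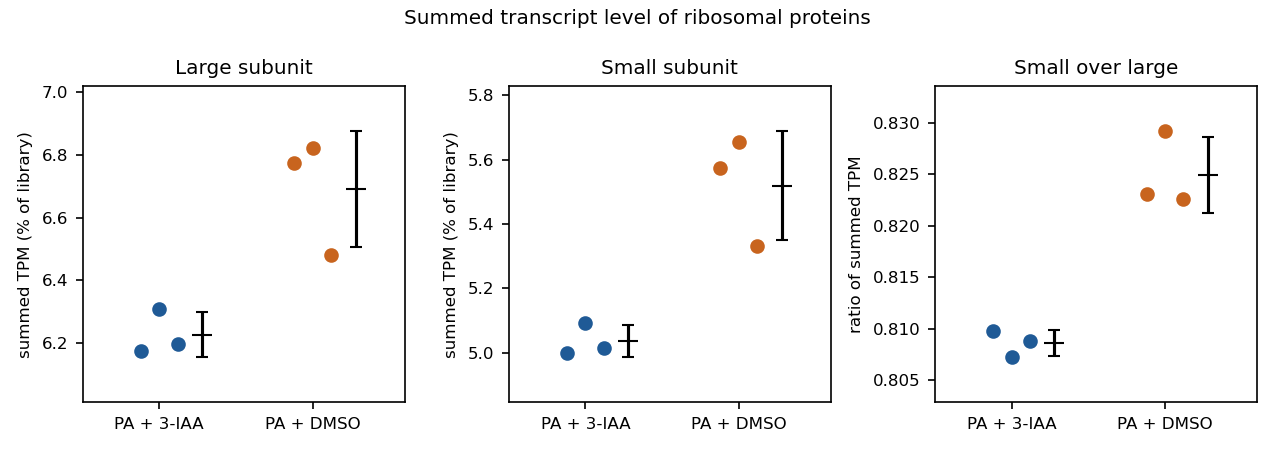
Summed TPM of the large subunit (left), of the small subunit (middle), both in percent of a library, and the ratio of small to large (right), per library, with PA + 3-IAA left of PA + DMSO; points are libraries and bars show mean ± SD, n = 3 each. Axes do not start at 0. In each panel the PA + 3-IAA points lie below all PA + DMSO points.

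The stalk of the large subunit, which recruits elongation factors, is built from RPLP0 at its base, RPL12 beside it, and the acidic proteins RPLP1 and RPLP2. RPLP2 had 106, 109 and 106 CPM in PA + 3-IAA libraries, against 137, 143 and 141 CPM in PA + DMSO libraries. The groups lay far apart relative to their spread, and RPLP2 changed by -0.39 (log2, SE 0.053, adjusted p = 0.000361). Its partner RPLP1, which dimerizes with it, had 421, 444 and 428 CPM in PA + 3-IAA libraries, against 468, 468 and 445 CPM in PA + DMSO libraries. For RPLP1 the highest library with 3-IAA nearly touched the lowest with DMSO, and -0.10 (SE 0.057) did not pass (adjusted p = 0.19). RPLP1 was called, at -0.12, when PA + DMSO replicate 3 was left out. RPLP0 had 1023, 1059 and 1015 CPM with 3-IAA and 1181, 1247 and 1178 CPM with DMSO, a change of -0.22 (SE 0.059, adjusted p = 0.0114). That call was lost without PA + 3-IAA replicate 1 or 3 (-0.21 each) or PA + DMSO replicate 2 (-0.19). RPL12 changed by -0.25 (SE 0.057, adjusted p = 0.00509). Of these 4 proteins 3 were thus lower, with RPLP2 at the largest change, beside 26 of 48 members in the whole large subunit.

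The largest changes of the large subunit were in RPL22L1, RPL13A, RPL10, RPLP2 and RPL13. RPL22L1 is a paralogue of the RNA-binding protein RPL22. It had 48.0, 48.6 and 48.9 CPM in PA + 3-IAA libraries, against 79.3, 84.6 and 67.1 CPM in PA + DMSO libraries. The 3 libraries with 3-IAA were almost equal, all below every library with DMSO, and the gene was 1.59-fold lower (log2 -0.67, SE 0.083, adjusted p = 0.000226). RPL22 itself had 151, 169 and 152 CPM with 3-IAA and 168, 179.6 and 172 CPM with DMSO, where the groups overlapped by 1 library, and -0.14 (SE 0.064) did not pass (adjusted p = 0.101). Leaving out PA + DMSO replicate 3, RPL22 was called at the same -0.14 and RPL22L1 was at -0.75.

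RPL13A, which in human myeloid cells can leave the ribosome to silence inflammatory mRNAs, had 493, 501 and 476 CPM in PA + 3-IAA libraries, against 667, 696 and 625 CPM in PA + DMSO libraries. RPL10, which joins the large subunit late in its assembly near the site of peptide bond formation, had 718, 760.1 and 731 CPM with 3-IAA and 1017, 1038 and 924 CPM with DMSO. Both were 1.35-fold lower with no overlap, RPL13A at -0.44 (SE 0.063, adjusted p = 0.000451) and RPL10 at -0.43 (SE 0.066, adjusted p = 0.000611). RPL13, a structural protein of the large subunit, averaged 257 ± 3.10 CPM with 3-IAA and 328 ± 12.7 CPM with DMSO (SD, n = 3 each), and was 1.27-fold lower (adjusted p = 0.000838).

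At the other end of the large subunit were RPL27, RPL26L1 and the second locus named RPL17. RPL27 had 332, 354 and 341 CPM in PA + 3-IAA libraries, against 339, 351 and 343 CPM in PA + DMSO libraries, a log2 difference of -0.01 (SE 0.056, adjusted p = 0.909). RPL26L1, a near copy of RPL26 expressed far below it, had 22.5, 24.3 and 21.9 CPM with 3-IAA and 24.0, 22.9 and 22.9 CPM with DMSO, at -0.02 (SE 0.073, adjusted p = 0.812). Both genes thus had fully overlapping groups, and neither sign was stable across processing settings. RPL26 was at -0.12 and did not pass (adjusted p = 0.0959); its mean level was 815 TPM, against 67.4 TPM for RPL26L1. The second RPL17 locus, ENSBTAG00000060385, is 3802 bases long in the deposited table, and its best protein match there is tRNA wybutosine-synthesizing protein 4, beside a ribosomal domain. It had 2.63 to 5.38 CPM per library and a log2 difference of -0.02 with an SE of 0.25. It was kept because the rule goes by name, and whether its reads are of a ribosomal protein was not tested.

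Around the exit tunnel of the large subunit sit RPL17, RPL19, RPL22, RPL23A, RPL26, RPL31, RPL35 and RPL39. Among their 9 rows 3 were called lower, RPL17, RPL39 and RPL19, and 0 higher by edgeR, DESeq2 or voom, with a median of -0.12. That is near the 25.8% of all tested genes called lower, and below the 39.3% of other abundant genes. Leaving out PA + 3-IAA replicate 1 or replicate 3 brought this to 0 lower, leaving out PA + DMSO replicate 2 to 1, and leaving out PA + DMSO replicate 3 to 6. It was also 1 with scaling by library total. RPL17, at ENSBTAG00000022902, had 579.8, 624 and 589 CPM in PA + 3-IAA libraries, against 699, 721 and 670.3 CPM in PA + DMSO libraries, a change of -0.22 (SE 0.061, adjusted p = 0.0129). Its groups did not overlap, though leaving out PA + 3-IAA replicate 1 or 3 or PA + DMSO replicate 2 ended the call at between -0.21 and -0.20. RPL23A, which docks the signal recognition particle, had 496, 560.3 and 531 CPM with 3-IAA and 517, 535 and 496 CPM with DMSO, at 0.04 (SE 0.066). RPL35, its neighbour at the tunnel exit, had 369, 387 and 366 CPM with 3-IAA and 357, 361 and 379 CPM with DMSO, at 0.03 (SE 0.058). For both the groups overlapped and the adjusted p was 0.677 and 0.646, in the order named.

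RPL5 and RPL11 bind 5S ribosomal RNA and, when free of the ribosome, hold back MDM2, the ubiquitin ligase of p53. RPL5 had 547, 580.2 and 559 CPM in PA + 3-IAA libraries, against 616, 635 and 596 CPM in PA + DMSO libraries, at -0.13 (SE 0.058, adjusted p = 0.086). RPL11 had 386, 434 and 417 CPM with 3-IAA and 432, 452 and 431 CPM with DMSO, at -0.09 (SE 0.063, adjusted p = 0.273). Of the pair 0 passed by edgeR, DESeq2 or voom. RPL5 alone was called without PA + DMSO replicate 3, at -0.15. RPL7L1, a paralogue of RPL7 found in assembling large subunits, averaged 106 ± 5.42 CPM with 3-IAA and 115 ± 3.81 CPM with DMSO (SD, n = 3 each) and did not pass (log2 -0.12, adjusted p = 0.133). It was called, at -0.14, without PA + DMSO replicate 3.

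In the small subunit the largest changes were in RPS4Y1, RPS12, RPS28, RPS9 and RPS18. RPS12, which sits in the beak of the subunit, had 313, 336 and 322 CPM in PA + 3-IAA libraries, against 433, 442 and 404 CPM in PA + DMSO libraries. It was 1.32-fold lower with no overlap (log2 -0.40, SE 0.062, adjusted p = 0.000685). RPS28, in the head near the path by which mRNA leaves, had 47.7, 45.1 and 44.2 CPM with 3-IAA and 56.7, 62.0 and 61.6 CPM with DMSO, at -0.40 (SE 0.063, adjusted p = 0.000775). RPS9, a protein that binds early to the body of the subunit, had 234, 256 and 240.0 CPM with 3-IAA and 332, 326 and 298 CPM with DMSO, at -0.39 (SE 0.065, adjusted p = 0.00101). The 3 genes gave nearly the same change, although per length their mean levels were 2250.1 TPM for RPS12, 226 TPM for RPS28 and 1889.6 TPM for RPS9. RPS18, in the head and facing the large subunit, averaged 352 ± 3.97 CPM with 3-IAA and 443 ± 20.4 CPM with DMSO (SD, n = 3 each), 1.26-fold lower (adjusted p = 0.00139).

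RPS4Y1 is the deposited name of a second RPS4 gene beside RPS4X. In humans that name belongs to a gene of the Y chromosome, whereas by symbol RefSeq (assembly ARS-UCD2.0) places 0 of the 79 members on that chromosome in cattle. It had 80.9, 87.5 and 88.4 CPM in PA + 3-IAA libraries, against 110.3, 119 and 110.0 CPM in PA + DMSO libraries, a change of -0.40 (SE 0.062, adjusted p = 0.000676). RPS4X had 356, 398 and 377 CPM with 3-IAA and 454, 479.7 and 427 CPM with DMSO, at -0.27 (SE 0.068, adjusted p = 0.0093). Both rows were lower without overlap, RPS4X at the higher level per length, 955 against 75.5 mean TPM. The sources used here do not say how reads were divided between such near copies.

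The least changed members of the small subunit were RPS27L, RPS10 and RPS15. RPS10, a beak protein that is ubiquitinated when ribosomes collide, had 275, 291 and 295 CPM in PA + 3-IAA libraries, against 277, 280.4 and 279 CPM in PA + DMSO libraries, at 0.04 (SE 0.055, adjusted p = 0.551). RPS15, in the head near the decoding centre, had 323, 350.5 and 333 CPM with 3-IAA and 348, 351 and 339 CPM with DMSO, at -0.04 (SE 0.058, adjusted p = 0.549). RPS27L, a paralogue of RPS27 that p53 induces in human cells, had 36.8, 36.5 and 32.5 CPM with 3-IAA and 39.1, 37.2 and 33.3 CPM with DMSO, at -0.05 (SE 0.081, adjusted p = 0.636). In all 3 the groups overlapped.

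By position in the small subunit, 9 of 12 proteins of the head and beak were called lower and 0 higher by edgeR, DESeq2 or voom, with a median of -0.22. It was 5 lower when PA + 3-IAA replicate 1 was left out. Of 5 proteins along the mRNA entry path and decoding site 3 were lower, RPS23, FAU and RPS3, and 0 higher by the same 3 tools, with a median of -0.23. In the whole small subunit 23 of 31 members were lower, so neither position stood out from its subunit. Among all tested genes 25.8% were lower. RPSA, which joins the platform late and was first known as a laminin-binding protein, had 944, 983 and 959 CPM in PA + 3-IAA libraries, against 1130.2, 1160.5 and 1057 CPM in PA + DMSO libraries. Its groups were clearly apart (log2 -0.21, SE 0.061, adjusted p = 0.0158), yet the call ended when PA + 3-IAA replicate 1 or 3 or PA + DMSO replicate 1 or 2 was left out (-0.21 to -0.19), and with scaling by library total.

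A few ribosomal proteins are made as fusions with ubiquitin or a ubiquitin-like domain that is then cut off. Of 3 such genes tested, 2 were lower, FAU and RPS27A, and 1, which the name rule does not take, was not called. Among all tested genes 25.8% were lower. FAU, which yields RPS30, had 119, 126 and 108 CPM in PA + 3-IAA libraries, against 140.3, 149 and 147 CPM in PA + DMSO libraries, at -0.30 (SE 0.068, adjusted p = 0.00471). RPS27A had 449, 485 and 459.6 CPM with 3-IAA and 512, 536 and 517 CPM with DMSO, at -0.17 (SE 0.059, adjusted p = 0.0368). Both had separate groups. The RPS27A call ended when any library other than PA + DMSO replicate 3 was left out (log2 -0.20 to -0.14), and with scaling by library total or no filter. When PA + DMSO replicate 3 was left out all 3 fusion genes were called lower.

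By level in TPM, the most abundant large subunit transcripts were RPL37, RPL23 and RPL17. RPL37, a zinc-binding protein, had 6853, 7401 and 7099.5 TPM in PA + 3-IAA libraries, against 7300.2, 7138 and 6849 TPM in PA + DMSO libraries. RPL23, which faces the small subunit, had 4689, 4921 and 4755 TPM with 3-IAA and 4871, 4766 and 4616 TPM with DMSO. On this scale both genes overlapped between groups, and in CPM neither passed, RPL37 at -0.14 (SE 0.062, adjusted p = 0.0804) and RPL23 at -0.10 (SE 0.06, adjusted p = 0.186). Both were called without PA + DMSO replicate 3, at -0.17 and -0.13. The most abundant of the small subunit were RPS29, another zinc-binding protein, RPS2, at the mRNA entry, and RPS24. Their mean TPM was 6442, 3269 and 2824, in the order named. These places depend on the lengths used. By counts per kilobase of the deposited length, RPS29 was at place 75 and RPL37 at place 22 of the members.

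RPS29 had 167, 169.8 and 145 CPM in PA + 3-IAA libraries, against 189, 185 and 180.0 CPM in PA + DMSO libraries, and was called at -0.20 (SE 0.07, adjusted p = 0.0347). PA + 3-IAA replicate 3 was the lowest by a wide margin. The call ended without PA + 3-IAA replicate 1 (-0.23) or 3 (-0.13), PA + DMSO replicate 1 (-0.19) or 2 (-0.20), and with scaling by library total. RPS24 was just past the threshold, at -0.15 (SE 0.057, adjusted p = 0.0473), and stayed past it in 1 of the 6 fits that left out a library, the one without PA + DMSO replicate 3 (-0.17); in the other 5 it lay between -0.17 and -0.13. Scaling by library total and no filter also ended its call. RPS2, at 1155 ± 30.3 CPM with 3-IAA and 1275 ± 40.8 CPM with DMSO (SD, n = 3 each), was just short of it, at -0.14 (adjusted p = 0.0705), and was called without PA + DMSO replicate 3, at -0.16. Over the 79 members, 3 exceeded 4000 mean TPM, 46 lay between 1000 and 4000, 25 between 100 and 1000, and 5 below 100.

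Neither the deposited length nor the level in TPM went with the size of the change, though the TPM values rest on other lengths. Over the 79 members the log2 fold change had a Pearson r of 0.049 and a Spearman rho of 0.119 with length, and -0.0166 and -0.0422 with mean log2 TPM, given as a description since all members share the same 6 libraries. Of 33 members with counterparts in bacteria and archaea (universal proteins, the second RPL17 row left out) 22 were lower, with a median of -0.20. Of 40 without such counterparts 25 were lower, with a median of -0.17. Of the 5 paralogues RPL22L1, RPS4Y1, RPL7L1, RPL26L1 and RPS27L, 2 were lower, with values between -0.67 and -0.02, beside -0.44 to 0.04 over the 73 core members. RPL36AL, a further paralogue that the name rule does not take, did not pass (log2 -0.18, adjusted p = 0.0619). When PA + DMSO replicate 3 was left out, RPL7L1 and RPL36AL were called lower too.

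To ask which members departed from the shared shift, counts were also scaled by the summed counts of the members themselves, an alternative chosen after seeing the data. Relative to this pool the median of all tested genes moved by 0.19 on the log2 scale, and the members' medians were 0.02 for the large and 0.0026 for the small subunit. The direction of the set as a whole is therefore lost on this scale by construction, and only differences among members remain. In edgeR's test 9 members were lower and 4 higher relative to the pool, where 15.5% of all tested genes were lower and 39.6% higher. The 9 were RPL22L1, RPL13A, RPL10, RPLP2, RPL13, RPS4Y1, RPS12, RPS28 and RPS9, and the 4 were RPL27, RPL35, RPL23A and RPS10.

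In shares of the members' reads, RPL10 held 2.56%, 2.56% and 2.57% in PA + 3-IAA libraries, against 3.10%, 3.07% and 2.91% in PA + DMSO libraries. RPL22L1 held 0.171%, 0.164% and 0.172% with 3-IAA and 0.242%, 0.250% and 0.211% with DMSO. Among the members that gained share, RPL23A held 1.77%, 1.89% and 1.86% with 3-IAA and 1.57%, 1.58% and 1.56% with DMSO. RPS10 held 0.983%, 0.980% and 1.04% with 3-IAA and 0.842%, 0.828% and 0.878% with DMSO. In each of these 4 the groups were separate, which was common among the members on this scale. Of the 79 members, 20 had separate shares with PA + 3-IAA below and 25 with it above. The same count was not made over all tested genes on this scale, so these 2 counts have no background beside them. RPL10 and RPL13A (log2 -0.24 each, adjusted p = 0.00861 and 0.00768), RPL22L1 (-0.47, adjusted p = 0.000723), RPL23A (0.23, adjusted p = 0.01) and RPS10 (0.23, adjusted p = 0.00877) kept their call without each library in turn. Leaving out PA + 3-IAA replicate 1, PA + 3-IAA replicate 3 or PA + DMSO replicate 2 left 4 lower, and leaving out PA + DMSO replicate 3 gave 12. The fits that omitted PA + 3-IAA replicate 1, PA + DMSO replicate 1 or PA + DMSO replicate 2 had 2 higher, and the fit that omitted PA + DMSO replicate 3 had 7.

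**Figure D4:**
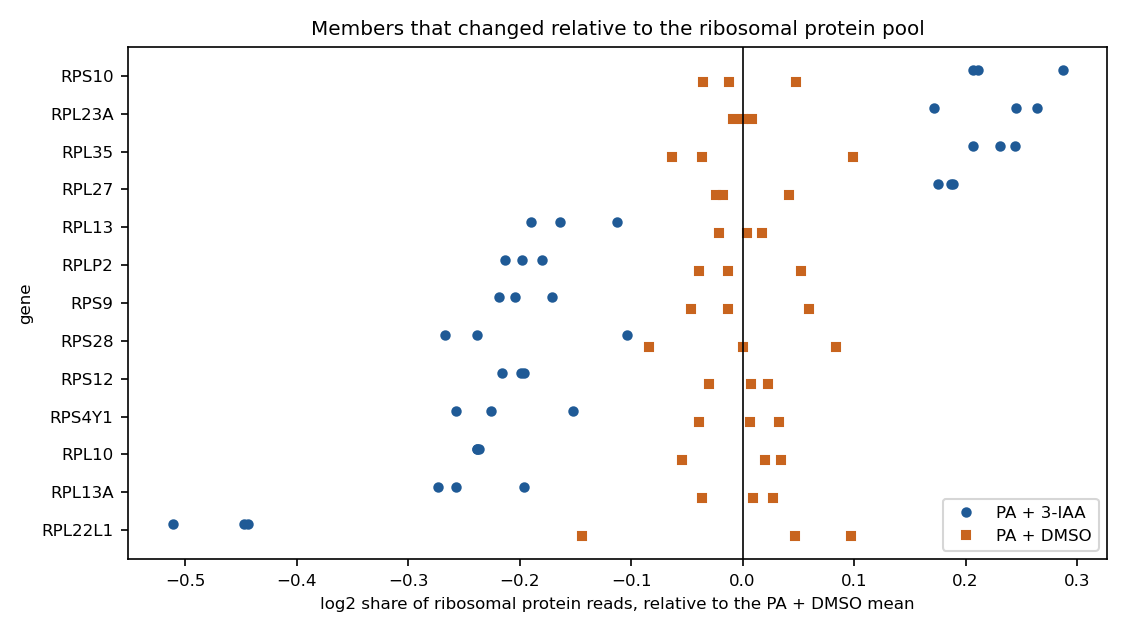
Log2 share of the members' reads in each library, relative to the mean of the PA + DMSO libraries, for the 13 members that changed relative to the summed counts of all members; circles are PA + 3-IAA and squares PA + DMSO libraries. RPL22L1 lies farthest left, RPL10, RPL13A, RPS12 and others near -0.2, and RPS10, RPL23A, RPL35 and RPL27 near 0.2.

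Ribosomal protein genes have many processed copies, and the authors' estimate divides reads between loci of like sequence. Counts were fractional in at least 1 library for 49 members and whole in all 6 for 30. Of the 49 with fractions 29 were lower, with a median of -0.18, and of the 30 whole ones 20 were lower, with the same median of -0.18. A further 271 loci without a gene name had a cytosolic ribosomal protein as best Swiss-Prot match, and 38 of them, matching 25 proteins, had a mean count of at least 10. Their counts came to 3.15% to 3.60% of the members' counts in a library. Of these 38 loci 12 were called lower and 26 were not called, with a median of -0.23. The share lower is near the 25.8% of all tested genes, but it differed by count. Among the 11 loci with the highest mean counts (219 to 6778), all were called lower but an RPL15-like locus, ENSBTAG00000040367. That locus was at -0.14 (adjusted p = 0.466 in edgeR's test). Most loci with fewer counts were not called. This split was made after the values were seen.

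At 1 of these loci, chosen after its values were seen, the copy had about as many reads as the named gene. The RPS25-like locus ENSBTAG00000013866 averaged 299 ± 19.8 CPM with 3-IAA and 371 ± 15.8 CPM with DMSO (SD, n = 3 each), and was lower at -0.31 (SE 0.067, adjusted p = 0.0038). RPS25 itself averaged 306 ± 11.5 CPM with 3-IAA and 338 ± 7.48 CPM with DMSO (SD, n = 3 each), and did not pass at -0.14 (adjusted p = 0.0577). Another RPL15-like locus, ENSBTAG00000015551, at 140.2 CPM with 3-IAA and 170.0 CPM with DMSO on average, was lower at -0.28 (adjusted p = 0.00254). RPL15, at 264 CPM with 3-IAA and 282 CPM with DMSO, was at -0.09 and did not pass (adjusted p = 0.186). How reads fell between these copies was not tested. In a setting chosen after seeing the data, each such locus whose protein had a named member was added to that member. With this, 51 members were lower and 0 higher, where 25.8% of tested genes were lower.

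The authors' deposited table holds 78 of the member names, 77 of them once in both tables. By the authors' deposited table, 50 members had an adjusted p under 0.05 with a negative log2 fold change and 0 with a positive one, with a median of -0.19. It marks 1 of them, RPL22L1, as Down and 76 as Stable, and the smallest absolute log2 fold change among all genes the authors' deposited table marks is 0.585. The small shared shift thus lies below the size at which that table marks a gene.

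Among other transcripts of the TOP class, those of translation factors and partners, 14 of 20 tested were lower, 1 was higher and 5 did not pass, where 25.8% of all tested genes were lower and 25.4% higher. The median was -0.28 beside 0.003 over all tested genes. EEF2, which moves the ribosome along the mRNA, had 1378, 1415 and 1421 CPM in PA + 3-IAA libraries, against 2059, 2123 and 1902 CPM in PA + DMSO libraries, at -0.53 (SE 0.064, adjusted p = 0.0002). EIF4B, which aids the helicase of initiation, averaged 373 ± 18.8 CPM with 3-IAA and 550.0 ± 53.4 CPM with DMSO (SD, n = 3 each), at -0.56 (adjusted p = 0.000438). EIF3H, a subunit of the scaffold that binds the small subunit, was at -0.55 (adjusted p = 0.000386). The gene called higher was EIF3L, another subunit of that scaffold, at 0.25 (adjusted p = 0.0126), and it was not called without PA + 3-IAA replicate 3 or PA + DMSO replicate 1 or 2. RACK1, a scaffold protein of the small subunit head that the name rule does not take, was at -0.33 (SE 0.062, adjusted p = 0.00192; chosen after its value was seen). Leaving out each library in turn gave 11 to 16 lower, most without PA + DMSO replicate 3, and 0 or 1 higher.

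Factors of ribosome biogenesis, which process ribosomal RNA and assemble subunits in the nucleolus, were called lower more often than higher. Of 46 tested 25 were lower and 4 higher, where 25.8% of all tested genes were lower and 25.4% higher. The median was -0.20. EFL1, the GTPase that frees new large subunits for use, had 72.2, 73.8 and 79.7 CPM in PA + 3-IAA libraries, against 131, 133 and 109 CPM in PA + DMSO libraries, and was 1.65-fold lower (log2 -0.72, SE 0.083, adjusted p = 0.00016). RRP9, which binds the U3 small nucleolar RNA, was at -0.96 (adjusted p = 0.000163) and GAR1, of the pseudouridylation complex, at -0.63 (adjusted p = 0.000197). The 4 higher were POLR1B, a subunit of RNA polymerase I (0.43), HEATR3, which helps import RPL5 (0.39), the RNA polymerase I factor UBTF (0.35) and the methylation scaffold NOP56 (0.35). Leaving out PA + DMSO replicate 3 gave 28 lower and 7 higher. The lowest fitted value was that of NOP2, an rRNA methyltransferase, at -4.59 (SE 0.81), with 0 to 0.321 CPM in PA + 3-IAA and 1.82 to 6.82 CPM in PA + DMSO libraries; it was chosen after its value was seen, and at such low counts the fitted value depends on the prior count.

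Regulators of TOP transcripts and of mTORC1 gave 6 lower and 3 higher of 21, with a median of -0.09. The share lower is near the 25.8% of all tested genes, and the share higher is below their 25.4%. SESN2, which holds back mTORC1 when leucine is short, had 33.8, 29.2 and 30.5 CPM in PA + 3-IAA libraries, against 192, 181 and 113 CPM in PA + DMSO libraries. It was 5.20-fold lower (log2 -2.38, SE 0.22, adjusted p = 0.000396), with PA + DMSO replicate 3 the lowest of its group. LARP1, which binds the TOP tract, averaged 136 ± 6.50 CPM with 3-IAA and 196 ± 17.6 CPM with DMSO (SD, n = 3 each), at -0.53 (adjusted p = 0.000436), and MTOR, the kinase itself, was at -0.48 (adjusted p = 0.000772). The 3 higher were RPTOR, the mTORC1 scaffold (0.78), the TOP-binding protein TIA1 (0.34), and EEF2K, the kinase that inactivates EEF2 (0.18). Without PA + DMSO replicate 3, 7 were lower and 5 higher, and with scaling by library total 5 were lower and 5 higher.

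Of 16 tested factors that store, rescue or clear stalled ribosomes 8 were lower and 1 higher, with a median of -0.14. Among all tested genes 25.8% were lower and 25.4% higher. GTPBP1 and GTPBP2, GTPases of ribosome rescue, were 2.03-fold and 2.08-fold lower (adjusted p = 0.000188 and 0.000218), and RIOK3, a kinase of small subunit turnover, 1.56-fold (adjusted p = 0.000205). NEMF, which tags chains stuck on the large subunit, was higher, at 57.3 ± 2.17 CPM with 3-IAA and 40.6 ± 2.17 CPM with DMSO (SD, n = 3 each; log2 0.50, adjusted p = 0.000266). Without PA + DMSO replicate 3 there were 8 lower and 3 higher.

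**Figure D5:**
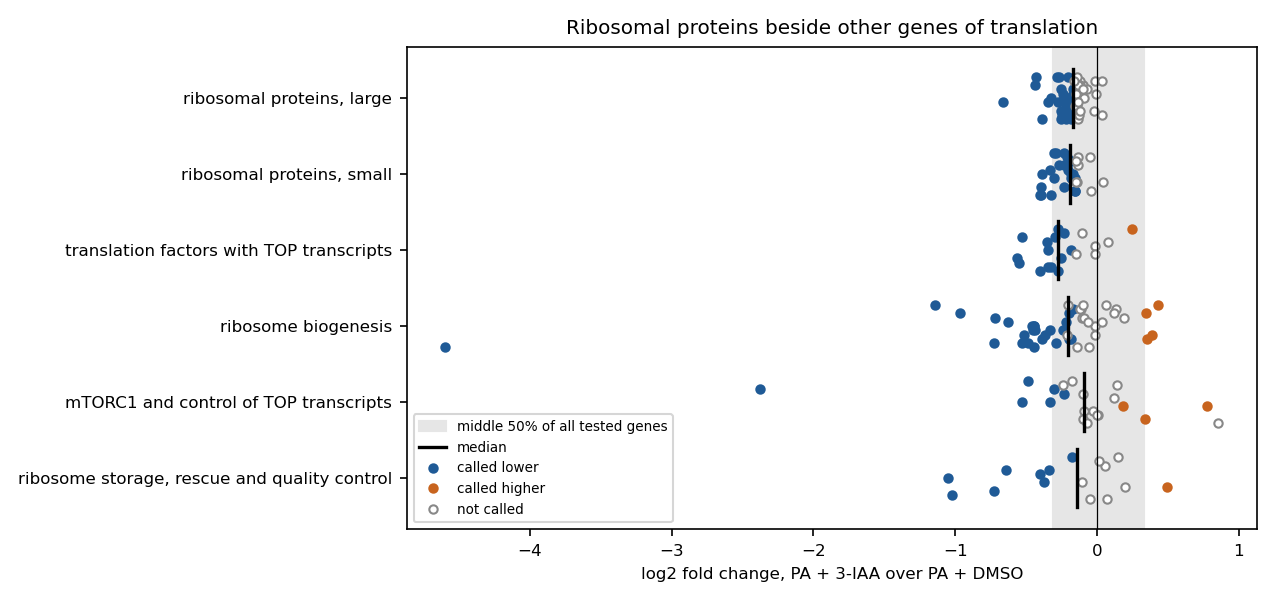
Fitted log2 fold change (PA + 3-IAA over PA + DMSO) of ribosomal proteins and of 4 lists of other translation genes; each point is a gene, the bar is the list's median and the grey band holds the middle 50% of all tested genes. Ribosomal proteins cluster tightly left of 0, and each of the other lists holds genes on both sides of 0; the point at -4.59 is NOP2.

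Markers of cell types moved too, and their part in the results was not tested. Among all tested genes 25.4% were called higher and 25.8% lower, and the stellate cell and cholangiocyte counts below lie near these shares. Of 12 hepatocyte markers 10 were higher and 2, SERPINA1 and TAT, did not pass, with a summed level of 21866 to 24127 TPM with 3-IAA and 15156 to 17081 TPM with DMSO. Endothelial markers summed to 59.1 to 67.1 TPM with 3-IAA and 33.5 to 51.2 TPM with DMSO, with 4 of 8 higher and 1 lower. Macrophage markers summed to 100.5 to 111 TPM with 3-IAA and 53.1 to 70.6 TPM with DMSO, with 3 of 7 higher. Stellate cell and fibroblast markers summed to 2256 to 2346 TPM with 3-IAA and 1299 to 1788 TPM with DMSO, with 2 of 7 higher and 2 lower. Cholangiocyte markers summed to 140.0 to 165 TPM with 3-IAA and 120.5 to 129.9 TPM with DMSO, with 1 of 5 higher and 1 lower. The summed level of all 5 lists was thus higher with 3-IAA, while that of ribosomal proteins was lower. The median log2 fold change was 0.55 for hepatocyte, 0.89 for endothelial and 0.28 for macrophage markers, but -0.05 for stellate cell and -0.12 for cholangiocyte markers, so in these last lists the sum and the median differ in sign. Erythroid markers came to under 1 TPM in every library, with HBM listed at 0. The 10 highest genes of a library took 17.6 ± 0.287% of its TPM with 3-IAA and 16.6 ± 0.666% with DMSO (SD, n = 3 each), and over all other genes the members' share was 13.7 ± 0.189% with 3-IAA and 14.6 ± 0.316% with DMSO.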

How the data were processed

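Poly(A) RNA of 6 libraries was analysed from the authors' table of expected counts (estimated reads per locus, fractional where reads are shared) and TPM, both deposited per library and as group means, with a locus length in bases. The authors' deposited test of the 2 groups lists the base mean signal, log2 fold change and standard error of each gene, a Wald score, and raw and adjusted p-values. Per the submitters' processing notes the tools were cutadapt 1.9, HISAT2 2.2.1, RSEM and DESeq2; the sources used here name no build, annotation or use of strand. Of the count lines, 2 were empty and are not analysed here.

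After rounding, expected counts entered edgeR 4.0.16 in R 4.3.3 (TMM, filterByExpr, robust quasi-likelihood, two-sided, all 15576 tested genes). At this depth 3 counts equal 0.133 to 0.181 CPM, for counting error only. The steps were tested on simulated data whose planted changes were larger than those of every member but RPL22L1. That test does not show how the smaller changes of the other members are called. All 79 members passed the filter. Levels between genes are in TPM. Alternatives were DESeq2 1.42.0, voom (limma 3.58.1), RLE or library total scaling, no filter, a CPM of at least 1 in all libraries, a replicate block and leaving out each library. The rule named RPLP0, RPLP1, RPLP2, RPSA, FAU, RPS27A, RPL5, RPL11 and the paralogues, and per subunit the 5 smallest and 3 largest p and the 3 highest TPM, and of each other list up to 3 smallest p; other names were chosen after their values were seen. Members and lists were chosen with earlier results of these data known.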

Additional observations from a re-analysis of the deposited data

How the results depend on the processing

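The number of members called lower was 48 to 51 with DESeq2, voom, RLE scaling, the strict filter or copies added, 44 with no filter, 31 with scaling by library total, 9 relative to the members' summed counts, and 25 to 69 leaving out a library. Number higher was 0 in each except relative to the members' summed counts (4), and 0 leaving out any library. Subunit medians were -0.0992 (large) and -0.118 (small) with library total scaling, where the median of all genes moved by 0.07, and 0.0211 and 0.0026 relative to the summed counts; leaving out a library they ranged from -0.1975 to -0.1552 and from -0.2191 to -0.1639. The log2 ratio of small to large was -0.0288 (-0.0309 to -0.0251 leaving out a library), -0.0079 in CPM and -0.0113 by mean log2 TPM. The difference in TPM share was -0.947 percentage points (-1.1474 to -0.8148), -0.256 in CPM and -0.372 over whole-count members.

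Same-numbered libraries did not deviate together (correlations of 0.018 to 0.029), so the numbers were not taken as pairs; with the replicate block 43 members were lower and 0 higher, and RPS24 (-0.1516, adjusted p = 0.0731) and RPS27A (-0.1687, adjusted p = 0.0527) were not called. Of the 49 called members 24 kept their call in all 13 settings other than copies added and the members' summed counts. Named genes lost a call in 32 comparisons with these settings and gained it in 6, and among these settings a sign turned only in named genes that were not called. The second RPL17 was at 0.0445 (voom), 0.059 (library total), 0.0023 (replicate block) and -0.2587 to 0.1991 leaving out a library, above 0 in 4 of the 6. RPL27 was at 0.063 (library total), 0.0002 (no filter) and -0.0333 to 0.0153 leaving out a library, above 0 without PA + 3-IAA replicate 1 or PA + DMSO replicate 2. RPL26L1 was at 0.0485 and RPS27L at 0.0234 with library total, -0.0679 to 0.009 and -0.1127 to 0.0062 leaving out a library, both above 0 without PA + 3-IAA replicate 3 and RPS27L also without PA + DMSO replicate 1, and RPS15 was at 0.0277 with library total. Relative to the members' summed counts, values turned to 0.1832 (second RPL17), 0.1831 (RPL27), 0.1677 (RPL26L1), 0.1439 (RPS27L), 0.1477 (RPS15), 0.0511 (RPL37), 0.0903 (RPL23), 0.0512 (RPS2), 0.0412 (RPS24), 0.0968 (RPLP1), 0.0239 (RPS27A), 0.0613 (RPL5), 0.1039 (RPL11) and 0.0752 (RPL7L1), by the construction of that scale. Other causes were not tested.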

Other observations

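One unnamed locus stood apart from the 79 members and from the other copies. ENSBTAG00000059232 has RPL10 as its best Swiss-Prot match, beside a reverse transcriptase domain, and is 5586 bases long in the deposited table. It had 160.6, 144 and 133 expected counts in PA + 3-IAA libraries, against 1860.1, 1391 and 1088 in PA + DMSO libraries, all fractional. In CPM it averaged 6.55 ± 0.337 with 3-IAA and 77.9 ± 20.0 with DMSO (SD, n = 3 each), 11.9-fold lower by edgeR (log2 -3.57, SE 0.23, adjusted p = 9.5e-05). With this locus added to it, RPL10 was at -0.53. The locus was chosen after its value was seen, and how its reads were divided from those of RPL10 was not tested.

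RPL37 was highest of the members in mean TPM and at place 22 by counts per kilobase of the deposited length, and RPS29, with a deposited length of 4275 bases, was at place 2 and 75. The TPM values therefore rest on other lengths than the deposited one.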
